A study of Arabidopsis thaliana with 6 samples.

Results

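AT3G49340 and AT2G39850 are genes of Arabidopsis thaliana that encode protein-cleaving enzymes of different classes. They were chosen by name, and the choice rested on their signals in the comparison described here, in which AT3G49340 was high and AT2G39850 was low in the mutant sni1. They are 2 of 13286 loci that the annotation paired with a probe set of their own. Because the values of this contrast chose them, their genotype differences are given as a description and with no test.

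AT3G49340 belongs to the papain-like cysteine proteases, which cut peptide bonds with a cysteine in the active site and are made as inactive precursors with an inhibitory prodomain. Plants place these enzymes in vacuoles, in lytic compartments and outside the cell, and the family is known for roles in senescence, immunity and programmed cell death. AT3G49340 falls in the subfamily of SAG12, a protease gene widely used as a marker of leaf senescence. AT2G39850 belongs to the subtilases, serine proteases related to bacterial subtilisin, most of which pass through the secretory pathway to the cell wall. Plant subtilases are known for processing peptide hormones and cell wall proteins, with roles in epidermal patterning, embryo cuticle formation and defence. The annotation used here gives no descriptive name for either locus, so these families are background knowledge.

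Whole wild-type plants of the accession Col-0 were compared with sni1 plants in the Col-0 background, which the labels describe as carrying a radiation-induced mutation in At4g18460, with 3 arrays per genotype. Both genotypes shared 3 days of cold treatment at 4 °C, commercial soil, a growth room at 22 °C, and growth stage 3.90, and no other treatment is given. SNI1 is known as a repressor of systemic acquired resistance, the salicylic acid-dependent defence state, and its own transcript was not analysed here. Total RNA was hybridised to the Affymetrix ATH1 array, on which each transcript is read by a probe set, and values are MAS5 signals on a linear scale. The sni1 genotype is represented by a single mutant line, and the labels do not say whether the arrays of a genotype came from separate sowings, so p-values reflect the scatter of these samples alone, and that scatter may be technical. In whole plants, fewer cells of a type and less RNA per cell cannot be told apart.

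The arrays had medians between 34.6 and 40.8. AT4G18460, the locus named in the labels, averaged 39.4 ± 2.01 over the wild-type arrays and 35.0 ± 8.35 over those of sni1 (SD, n = 3 each, limma adjusted p = 0.906). No probe set carried the name SNI1, so this signal is not taken as a reading of SNI1. The position of the mutation relative to this probe set is not given either, and the signal checks no label. Of the leaf markers, the Rubisco activase gene RCA was the only one of 10 with a named probe set, with signals from 3763 to 6091 over the arrays. Of 8 root markers 4 were measured. PYK10, a beta-glucosidase of roots, stood at 7.04 to 44.5, AT5G17820 at 1.51 to 6.99 and AT3G01190 at 0.927 to 7.39. Only AT5G44020 was bright, at 1621 to 2065. The markers fixed for flower, seed and xylem had 0 measured members. SAG12 had no named probe set, and of the senescent leaf list 2 of 7 were measured. SAG101, a lipase-like protein of senescence and defence, was higher in every sni1 array (limma adjusted p, unblocked 0.211 and blocked by replicate number 0.00496), with means of 33.2 ± 11.5 for wild type against 71.3 ± 5.25 for the mutant (SD, n = 3 each). SAG29, the other measured gene of that list, overlapped between genotypes, with signals of 11.9, 15.5 and 3.77 in wild-type replicates 1, 2 and 3 and of 2.17, 17.5 and 3.86 in sni1. The part of senescing tissue in the protease signals below was not tested.

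The cysteine protease gene AT3G49340 (probe set 252309_at, chromosome 3) had signals of 12.9, 13.8 and 10.7 in wild-type replicates 1, 2 and 3. In sni1 replicates 1, 2 and 3 its signals were 62.8, 91.0 and 55.6. The genotypes did not overlap, and the lowest sni1 array stood 4.02 times above the highest wild-type array. Means were 12.5 ± 1.59 for wild type and 69.8 ± 18.7 for sni1 (SD, n = 3 each), a ratio of 5.59. On the log2 scale with 2.87 added to each signal, the difference of sni1 minus wild type was 2.22 ± 0.25 (SE). That difference was the 39th largest positive one among 13648 probe sets above a filter on mean signal at 24.5. The wild-type mean lay under that filter value, and the probe set passed it with a mean of 41.1 over all arrays, through its sni1 signals. The ratio therefore rests on a low wild-type signal, and with a larger added constant, the 25th percentile of all values, the log2 difference was 1.71.

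The subtilase gene AT2G39850 (probe set 245088_at, chromosome 2) had signals of 143.2, 113.0 and 92.0 in wild-type replicates 1, 2 and 3. In sni1 replicates 1, 2 and 3 its signals were 62.0, 60.6 and 53.9. Here too the genotypes did not overlap, but the gap was narrow: the lowest wild-type array was 1.48 times the highest sni1 array. Means were 116.1 ± 25.7 for wild type and 58.8 ± 4.31 for sni1 (SD, n = 3 each), so that wild type stood 1.97 times above sni1. The log2 difference was -0.93 ± 0.19 (SE), the 70th most negative of the 13648. Both genotype means of this gene lay above the filter value.

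**Figure D1:**
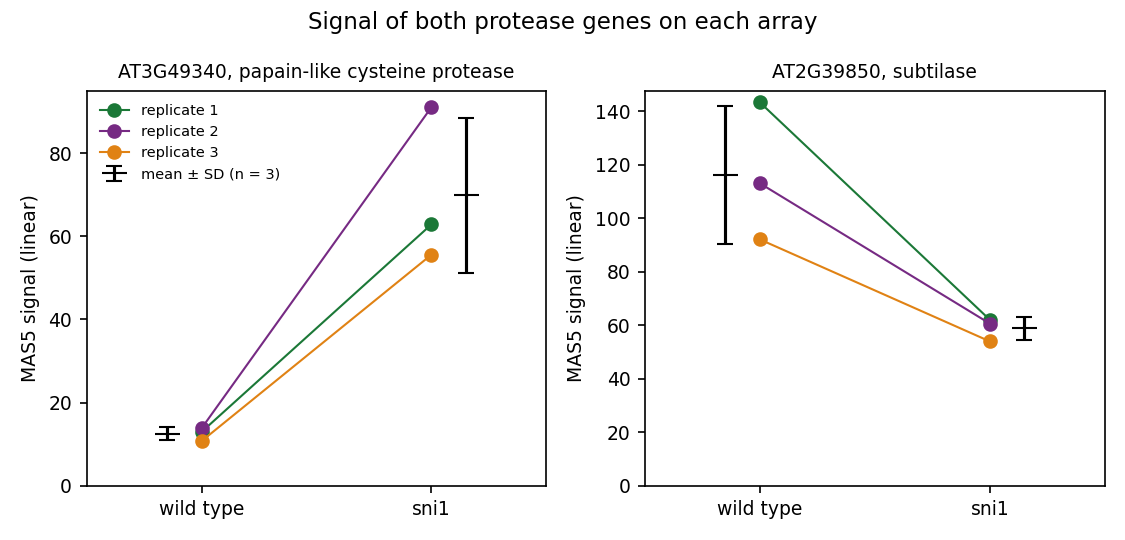
MAS5 signal (linear, from 0) of AT3G49340 and AT2G39850 on each of the 6 arrays, with lines joining same-numbered arrays and black bars giving mean ± SD (n = 3). AT3G49340 lies between 10.7 and 13.8 in wild type and between 55.6 and 91.0 in sni1, while AT2G39850 lies between 92.0 and 143.2 in wild type and between 53.9 and 62.0 in sni1.

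The spread within a genotype lay on opposite sides in the 2 genes. For AT3G49340 the coefficient of variation was 12.7% in wild type and 26.8% in sni1. For AT2G39850 it was 22.2% in wild type and 7.33% in sni1. Each gene thus varied more between arrays in the genotype in which its signal was higher. On the log2 scale the SD of AT3G49340 was 0.15 in wild type and 0.36 in sni1, and that of AT2G39850 was 0.31 and 0.10. With 3 arrays a genotype these SDs are themselves imprecise, and their difference was not tested.

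Same-numbered arrays of the genotypes deviated together across probe sets, so the replicate numbers were taken to pair them, which the labels do not state. Within replicate 1 the sni1 signal of AT3G49340 was 4.86 times that of wild type, within replicate 2 6.59 times and within replicate 3 5.18 times. For AT2G39850 the same ratios were 0.433, 0.536 and 0.586. AT3G49340 was higher in sni1 in 3 of 3 pairs and AT2G39850 lower in 3 of 3. As the genotypes did not overlap in either gene, any pairing of the arrays would give these counts. The pair with the largest ratio for AT3G49340, replicate 2, was not the pair with the largest fall for AT2G39850, replicate 1.

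A pattern that the choice of the genes did not use was the order of the replicate numbers within each genotype. AT3G49340 was highest in replicate 2, followed by replicate 1 and then replicate 3, in wild type and again in sni1. AT2G39850 was highest in replicate 1, followed by replicate 2 and then replicate 3, in both genotypes. The same order in both genotypes was found in 40.8% of all tested probe sets (5572 of 13648), so a shared order was common on these arrays. What distinguishes the numbers is not given in the labels.

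The other papain-like cysteine proteases were examined from a list of 30 genes besides AT3G49340. Of these, 17 had a named probe set and 8 passed the filter. In the limma fit over all 13648 probe sets without the block, 0 of the 8 passed an adjusted p of 0.05, against 0.550% of all tested probe sets. An unadjusted p under 0.05 was found in 1 of the 8 and in 1159 of all 13648. With the replicate number as a block, 2 of 8 rose and 0 fell, against 6.15% of all tested probe sets called higher and 3.88% called lower in that fit. The median log2 fold change of the 8 was 0.17, with a range from -0.66 to 0.53, beside a median of -0.0051 over all tested probe sets. Not one of the 8 reached the 2.22 of AT3G49340, which was itself chosen for its high value in this contrast. The gene with an unadjusted p under 0.05 without the block, AT3G43960, was lower in sni1, with signals of 41.4, 47.4 and 32.3 in wild type and of 20.7, 26.5 and 25.7 in the mutant (log2 fold change -0.66 ± 0.23 SE; limma adjusted p, unblocked 0.426 and blocked 0.0776). It was the only one of the 8 whose genotypes did not overlap, against 14.4% of all tested probe sets.

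Both genes that rose with the block encode cathepsin B-like proteases, a branch of the papain family known in Arabidopsis for roles in immune cell death. AT4G01610 had signals of 439.0, 404.9 and 833.8 in wild-type replicates 1, 2 and 3 and of 684.1, 571.9 and 1141 in sni1 (log2 fold change 0.53 ± 0.35 SE; limma adjusted p, unblocked 0.798 and blocked 0.00520). AT1G02305 had signals of 409.9, 507.4 and 818.5 in wild type, and of 605.2, 590.7 and 1005 in the sni1 arrays (0.36 ± 0.31 SE; limma adjusted p, unblocked 0.866 and blocked 0.0484). In both genes the genotypes overlapped, replicate 3 stood above the other numbers in either genotype, and each sni1 array exceeded the wild-type array of its number. The call of AT1G02305 was lost with the block and median centring (limma adjusted p = 0.0780) and with the block and no filter (0.0867). Leaving out single arrays gave it fold changes between 0.11 (without sni1 replicate 3) and 0.64 (without wild-type replicate 3), and AT4G01610 values between 0.24 and 0.85 in the same fits.

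The nearest relatives of AT3G49340, the other SAG12 subfamily genes with a named probe set, lay under the filter. They were looked at after the values were seen. AT2G27420 had means of 21.3 ± 11.3 for wild type against 17.1 ± 5.20 for sni1, and AT2G34080 of 5.09 ± 2.59 and 4.77 ± 3.18 (SD, n = 3 each). AT1G29080 stayed between 1.07 and 2.68 on all arrays. AT1G29090 stood at 2.80, 3.63 and 1.94 in wild type, and at 8.38, 17.5 and 1.24 in the sni1 arrays, so that replicate 3 went against the other pairs. In fits with no filter, 0 of these 4 passed without or with the block (limma adjusted p from 0.900 to 0.991 and from 0.373 to 0.905). Of all 22746 probe sets 0.229% passed in the first of these fits, and in the second 2.73% were called higher and 1.28% lower. Over the 9 listed cysteine proteases under the filter the log2 fold change ran from -0.73 to 0.80.

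Of the 55 subtilases listed besides AT2G39850, 44 had a named probe set and 17 passed the filter. Without the block 0 of the 17 passed, against 0.550% of all tested probe sets. An unadjusted p under 0.05 was found in 4 of the 17 and in 1159 of all 13648 tested. With the block 4 fell and 0 rose. The corresponding shares of all tested probe sets were 3.88% and 6.15%. Their median log2 fold change was -0.053, with a range from -0.93 to 0.53, 7 of the 17 above 0 and 10 below. Wild-type and mutant arrays did not overlap in the 4 genes that fell, nor in 1 other of the 17, which was higher in sni1. Among all tested probe sets 14.4% did not overlap, 6.63% with lower and 7.73% with higher signal in sni1.

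SBT1.3 (AT5G51750) fell as far as AT2G39850, with signals of 232.3, 122.2 and 117.8 in wild-type replicates 1, 2 and 3 and of 99.5, 76.7 and 60.8 in sni1 (log2 fold change -0.93 ± 0.30 SE; limma adjusted p, unblocked 0.382 and blocked 0.00180). Its wild-type replicate 1 stood well above the other arrays, and without that array the fold change was -0.61. AT4G21650 went from 41.2, 29.8 and 34.7 to 17.5, 15.6 and 20.6 (-0.87 ± 0.24; limma adjusted p, unblocked 0.282 and blocked 0.0384), and its call was lost with the block and no filter (0.0973). AT5G44530 went from 101.7, 128.1 and 95.1 to 56.3, 94.4 and 51.7 (-0.70 ± 0.25; limma adjusted p, unblocked 0.454 and blocked 0.00927). AT4G30020 was nearly constant in wild type, at 287.0, 287.1 and 287.8, and stood at 211.0, 215.5 and 167.3 in sni1 (-0.54 ± 0.16; limma adjusted p, unblocked 0.341 and blocked 0.0123). Each sni1 array of these genes was below every wild-type array.

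**Figure D2:**
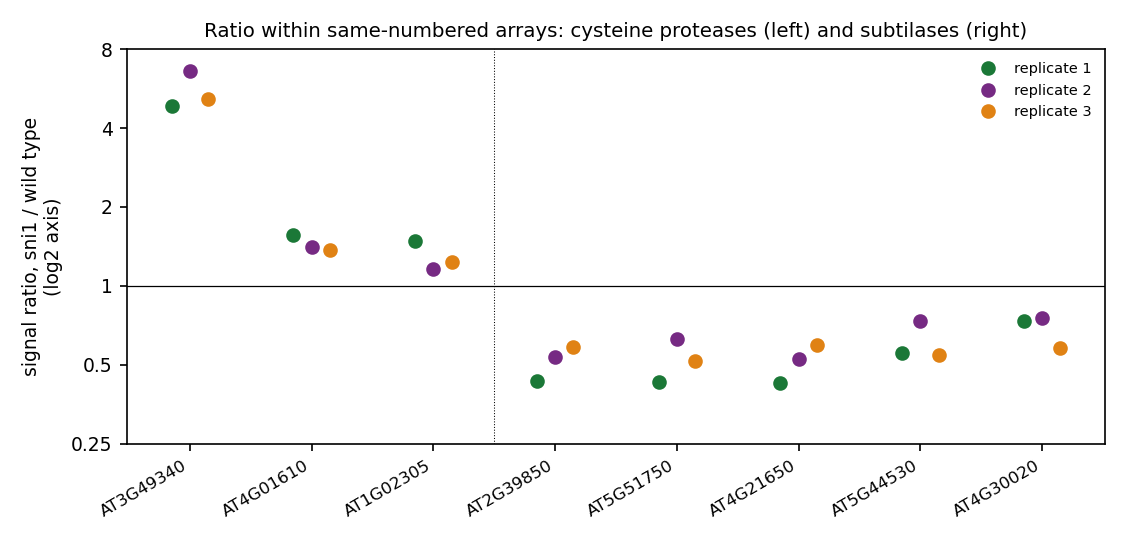
Signal ratio of sni1 to wild type (log2 axis) within each replicate number for AT3G49340 and the cysteine proteases called with the replicate block (left of the dotted line) and for AT2G39850 and the subtilases called with it (right). The ratios of AT3G49340 lie between 4.86 and 6.59, far above those of the other cysteine proteases shown. Those of AT2G39850, between 0.433 and 0.586, lie among those of the other subtilases shown. AT3G49340 and AT2G39850 were chosen by their values in this contrast. The other genes are shown because they were called in it, so the likeness of AT2G39850 to the subtilases shown follows from the selection. Relatives not called or under the filter are not shown.

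Subtilases with named functions were among those that did not pass in either fit. ARA12, known for its role in seed coat mucilage release, averaged 467.5 ± 77.7 for wild type against 585.0 ± 73.7 for sni1 (SD, n = 3 each), which is a log2 fold change of 0.33 (limma adjusted p, unblocked 0.746 and blocked 0.0596). S1P, the site-1 protease that activates membrane-bound transcription factors, had a log2 fold change of 0.0024, and TPP2, tripeptidyl peptidase II, one of 0.27. SBT3.5, which at 0.53 had the highest log2 fold change of the 17 above the filter, had an adjusted p of 0.690 without and 0.216 with the block in limma.

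Under the filter lay 27 subtilases, with log2 fold changes from -1.32 to 1.29. In fits with no filter 0 of these passed without the block and 1 fell with it, against 0.229% of all probe sets past the threshold without the block and 1.28% called lower with it. An unadjusted p under 0.05 without the block was found in 2 of the 27, and the share over all probe sets is not given. That gene, AT5G11940, had signals of 20.9, 26.1 and 32.1 in wild type, and of 5.95, 8.20 and 13.0 in the sni1 arrays (-1.32 ± 0.33 SE; limma adjusted p, unblocked 0.305 and blocked 0.0417). SBT3.3 (AT1G32960), known in Arabidopsis for a role in immune priming, stood at 2.62, 3.43 and 0.854 in wild type, and at 22.9, 14.1 and 1.44 in the sni1 arrays (1.29 ± 0.64 SE; limma adjusted p, unblocked 0.800 and blocked 0.165). It was high in sni1 replicates 1 and 2, whereas sni1 replicate 3 lay within the wild-type range. Both genes were singled out after their values were seen.

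**Figure D3:**
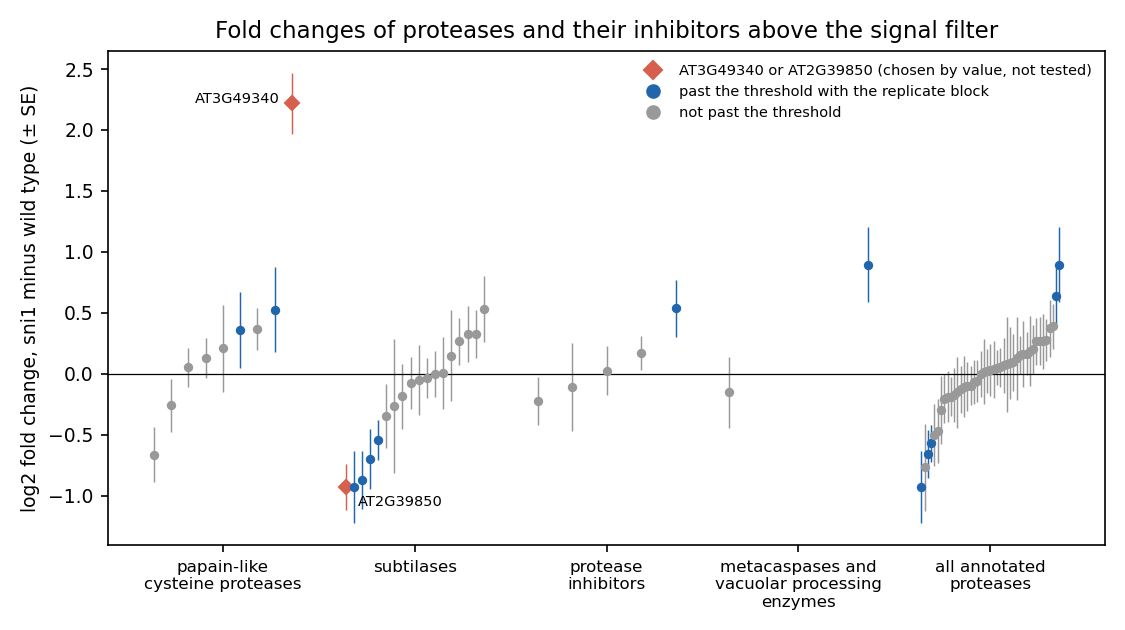
Log2 fold change of sni1 minus wild type (± SE) for each protease and protease inhibitor gene above the signal filter, grouped by list, with AT3G49340 and AT2G39850 as red diamonds and genes past the threshold with the replicate block in blue. AT3G49340 stands at 2.22, above all other genes shown, and AT2G39850 at -0.93, beside SBT1.3 at -0.93. The red diamonds mark genes chosen by their values in this contrast.

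The wider protease system was read from further lists. Of 13 metacaspases and vacuolar processing enzymes, 4 had a named probe set and 2 passed the filter. Without the block 0 of them passed, against 0.550% of all tested probe sets. An unadjusted p under 0.05 was found in 1 of the 2 and in 1159 of all 13648 tested. With the block 1 rose, against 6.15% of all tested probe sets. This was GAMMA-VPE, a vacuolar protease with caspase-like activity in immune cell death and senescence. Its signals were 513.8, 518.3 and 938.8 in wild type, and 1386, 831.9 and 1407 in the sni1 arrays (log2 fold change 0.90 ± 0.31 SE; limma adjusted p, unblocked 0.427 and blocked 0.00341). The genotypes overlapped, since wild-type replicate 3 exceeded sni1 replicate 2, and each same-numbered pair was higher in sni1.

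Of 12 protease inhibitors, 6 had a named probe set and 5 passed the filter. Without the block 0 passed, against 0.550% of all tested probe sets. An unadjusted p under 0.05 was found in 0 of the 5 and in 1159 of all 13648 tested. With the block 1 rose, against 6.15% of all tested probe sets. The gene was AT5G05110, which encodes a cystatin, an inhibitor of papain-like cysteine proteases. Its signals were 113.6, 108.1 and 162.0 in wild type, and 154.4, 166.5 and 242.4 in the sni1 arrays (0.54 ± 0.24 SE; limma adjusted p, unblocked 0.597 and blocked 0.0114), and the fold change was 0.34 without sni1 replicate 3. CYS1, another cystatin, had a log2 fold change of -0.22 (limma adjusted p, unblocked 0.869 and blocked 0.258).

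A text search of gene names for protease terms found 67 genes with a named probe set, 43 of them above the filter and neither AT3G49340 nor AT2G39850 among them. Without the block 0 of the 43 passed, against 0.550% of all tested probe sets. An unadjusted p under 0.05 was found in 5 of the 43 and in 1159 of all 13648 tested. With the block 2 rose and 3 fell, beside 6.15% and 3.88% of all tested probe sets. Their median log2 fold change was 0.031. Besides GAMMA-VPE and SBT1.3, those past the threshold were serine carboxypeptidase-like genes, which belong to a family of vacuolar and secreted peptidases and acyltransferases. The gene scpl48 rose from 119.3 ± 33.3 to 184.7 ± 30.5 (SD, n = 3 each), which is a log2 fold change of 0.64 (limma adjusted p, unblocked 0.454 and blocked 0.0197). The gene scpl25 fell from 149.8 ± 2.71 to 100.3 ± 11.4 (-0.57; limma adjusted p, unblocked 0.262 and blocked 0.0130) and scpl50 from 81.7 ± 17.3 to 50.3 ± 6.11 (-0.66; limma adjusted p, unblocked 0.328 and blocked 0.0311). The calls of scpl48 and scpl50 were lost with the block and no filter (limma adjusted p = 0.0527 and 0.0867).

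The genes nearest to AT3G49340 and AT2G39850 were taken by position in the TAIR10.1 gene order, the nearest 2 on each side with a named probe set. Those of AT2G39850 lay at least 5 genes away. Of these 8 genes 6 passed the filter, and without the block 0 passed the threshold, against 0.550% of all tested probe sets. An unadjusted p under 0.05 was found in 1 of the 6 and in 1159 of all 13648 tested. With the block 1 fell and 0 rose, beside 3.88% and 6.15% of all tested probe sets. AT3G49350, directly beside AT3G49340, had signals of 65.1, 62.5 and 45.6 in wild type, and of 88.3, 78.9 and 61.3 in the sni1 arrays (log2 fold change 0.38 ± 0.21 SE; limma adjusted p, unblocked 0.714 and blocked 0.103). AT3G49310 and AT3G49370 stood at -0.089 and 0.096. On the other chromosome WLIM2a, a LIM-domain protein that binds actin, was the only call among them: it fell with the block, from 261.4 ± 63.0 to 176.4 ± 21.9 (SD, n = 3 each), which is a log2 fold change of -0.54 (limma adjusted p, unblocked 0.518 and blocked 0.0165), and it lies 10 genes from AT2G39850. AT2G39870, 5 genes away, and AT2G39795, 7 genes away, stood at -0.28 and -0.37 and did not pass in either fit. The neighbours under the filter, AT3G49320 and AT2G39790, stood at 0.10 and 0.68 and did not pass in fits with no filter.

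Genes with profiles most like those of both proteases were found by the root-mean-square difference between log2 profiles over the 6 arrays, each centred on its own mean, among 7353 single-gene probe sets above the filter. Genes picked this way share the genotype difference by construction, and the picking also favours the same pattern over the replicate numbers. They carry no test of either. The nearest to AT3G49340 was AT5G39670 at a difference of 0.18, followed by AT4G00700 (0.22), AT5G52390 (0.25), AT1G65500 (0.25) and RING1 (0.26), an E3 ubiquitin ligase. The median difference over all candidates was 1.16. AT5G39670 had signals of 34.0, 24.5 and 21.3 in wild type, and of 110.5, 148.1 and 94.9 in the sni1 arrays. Like AT3G49340 it was highest in sni1 replicate 2, as were all 5 of these genes, a likeness that the picking favours. AT1G65500 had 49.8, 61.5 and 45.8 in wild type, and 230.7, 371.3 and 330.3 in the sni1 arrays, so its replicate 3 stood above replicate 1 in sni1, unlike that of AT3G49340.

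The nearest to AT2G39850 was AT5G05960 at 0.090, followed by AT3G04650 (0.091), AT4G18970 (0.091), ATLP-1 (0.092), a thaumatin-like protein gene, and GIS (0.10), a zinc finger regulator of trichome formation, with a median of 0.55 over all candidates. AT5G05960 had signals of 133.5, 115.3 and 82.2 in wild type, and of 67.6, 57.3 and 52.6 in the sni1 arrays. All 5 were highest in replicate 1 and lowest in replicate 3 of wild type, as AT2G39850 was, again a likeness that the picking favours. SBT1.3 and the other subtilases that fell were not among them.

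**Figure D4:**
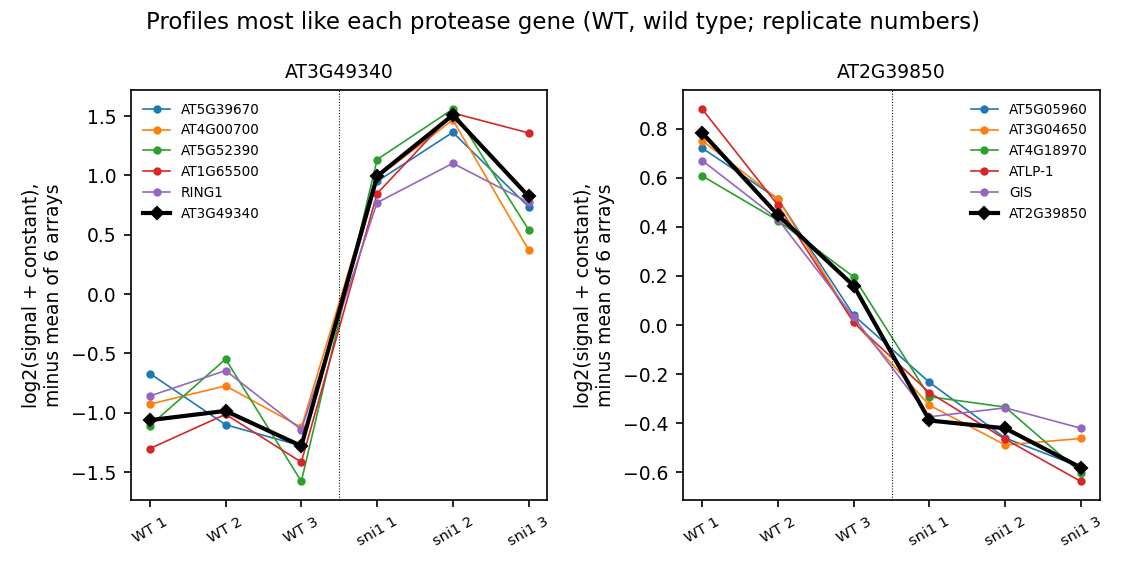
Log2(signal + constant) minus the mean of the 6 arrays for AT3G49340 and AT2G39850 (black diamonds) and the 5 genes closest to each by root-mean-square difference, with lines only joining the arrays of a gene. The genes on the left share the peak of AT3G49340 in sni1 replicate 2, and those on the right share the high wild-type replicate 1 of AT2G39850. The genes were picked for likeness over all 6 arrays, which favours such shared peaks.

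The fold changes of both genes were recomputed under 22 other settings. Those that changed only the filter, trend or block cannot move a fold change. AT3G49340 ran from 1.71 to 2.46 on the log2 scale and AT2G39850 from -1.08 to -0.77. With 1 array left out, AT3G49340 was lowest without sni1 replicate 2 (2.02) and highest without sni1 replicate 3 (2.36). AT2G39850 was nearest to 0 without wild-type replicate 1 (-0.77) and furthest from it without wild-type replicate 3 (-1.08). The scaling of the arrays moved either gene little: after quantile normalization they stood at 2.23 and -0.97, after median centring at 2.20 and -0.94, and after cyclic loess at 2.25 and -0.96.

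**Figure D5:**
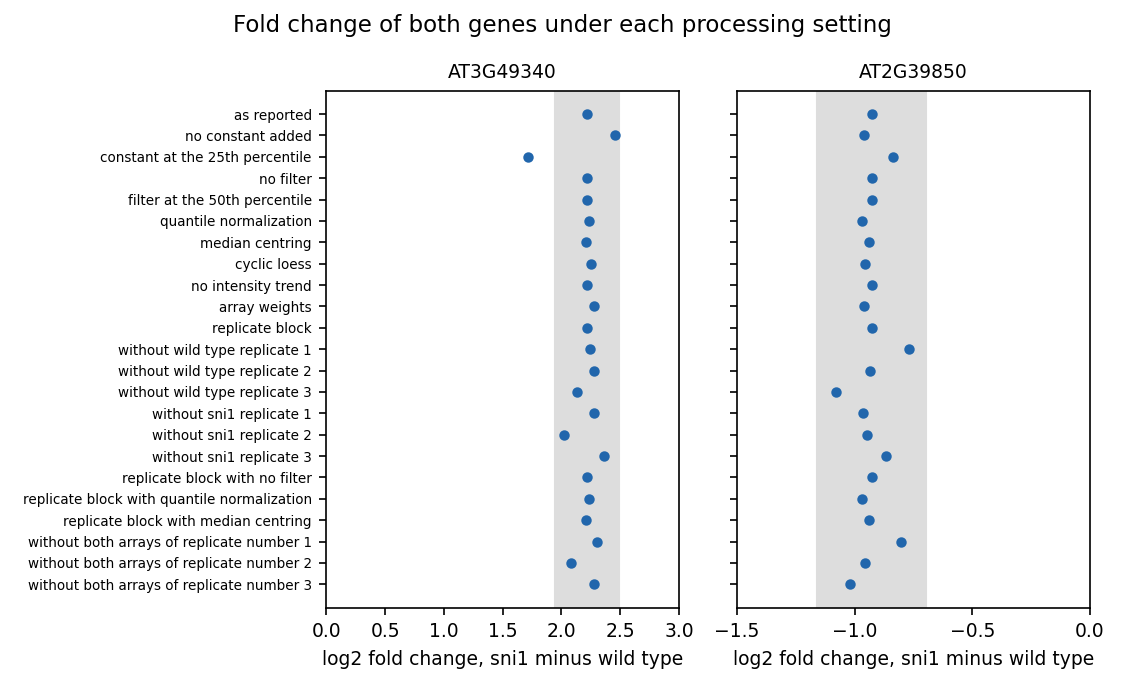
Log2 fold change of sni1 minus wild type for AT3G49340 and AT2G39850 under the reported setting (top row) and 22 alternatives, with the grey band giving the reported value ± the pooled SD of log2 values within genotypes. One value lies outside a band, that of AT3G49340 with the constant at the 25th percentile (1.71).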

How the data were processed

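The deposited values are MAS5 signal intensities on a linear scale, 1 per probe set and array, and MAS5 is named in the submitters' processing notes, with version and settings not given in the sources used here. The authors' arrays had trimmed means between 100.008 and 100.010 (2% left out at each end), so they were already scaled. Of 22746 probe sets, with 64 controls left out, 14016 had an annotation entry, 13513 with 1 gene and 503 with several. Of those with 1 gene, 13436 matched 13286 TAIR10.1 loci. Probe sets with several genes named none, and a locus with several probe sets took the one with the highest mean.

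A constant of 2.87, the 10th percentile over the whole table, was added before taking log2, which shrinks the fold changes of dim genes. Probe sets with a mean under 24.5 (40th percentile) were left out. The remaining 13648 were tested with limma 3.58.1 (intensity trend, two-sided, Benjamini-Hochberg, threshold 0.05) in R 4.3.3. The procedure was tried on simulated data that carried a replicate effect taken from these arrays, so that trial cannot check the pairing. Genes under the filter were read from fits with no filter. Figures used matplotlib 3.10.9. Same-numbered arrays deviated together (correlations 0.66, 0.58 and 0.71 over probe sets, themselves no replicates), others between -0.53 and -0.054. Deviations were taken from each genotype's own mean, so positive correlations of same-numbered arrays bring negative ones among the others. By these values, not by the labels, the numbers were taken to pair the arrays.

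The genes and lists were chosen with earlier results of these data known. Named were both genes, list members past the threshold without or with the block, 2 neighbours on each side and the 5 closest profiles for each gene. Outside this rule, and past the threshold neither without nor with the block, were AT3G43960, ARA12, S1P, TPP2, SBT3.5, SBT3.3, SBT4.13, CYS1 and the SAG12 subfamily genes. Their calls under the other settings are not given. The locus of the labels and the tissue markers were named as well. Protease terms were searched in RefSeq symbols and synonyms. Alternatives covered the constant, filter, normalization, trend, array weights, block and left-out arrays. No sequence is shown. The number of arrays limits the precision.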

Additional observations from a re-analysis of the deposited data

How the results depend on the processing

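The fold changes of AT3G49340 and AT2G39850 kept their direction under all 22 alternatives and moved by less than the SD within genotypes, except AT3G49340 with the constant at the 25th percentile (1.71 against 2.22). Part of this was fixed in advance. Settings that changed only the filter, trend or block return the same fold changes (2.22 and -0.93). As neither gene overlapped between genotypes, leaving out arrays could not reverse a direction. Their ranges with 1 array left out were 2.02 to 2.36 and -1.08 to -0.77. The count of called probe sets, 75 as reported, was 137 with array weights and 1369 with the replicate block, and 5 to 71 with 1 array left out (36 without wild-type replicate 1, 38 without wild-type replicate 2, 5 without sni1 replicate 1 or 2). The calls of cysteine proteases, subtilases and annotated proteases, 0 in each list without the block and 0 in each with any 1 array left out, were 2, 4 and 5 with the replicate block. These list calls were made only in fits that pair the arrays by replicate number. The following settings were chosen after seeing the data. With the block and no filter these counts were 914 probe sets and 1, 4 and 3 list members. With the block and quantile normalization they were 1442 and 3, 5 and 7, and with the block and median centring 1337 and 1, 4 and 5. Without both arrays of replicate number 1, 2 or 3, the numbers of probe sets that passed were 0, 3 and 60. The cause of these differences in count was not tested. Fits with arrays left out have fewer samples, and those with the same number of arrays also differed in count. Over all settings the limma adjusted p of the 11 named list genes past the threshold with the block ran from 0.000588 to 0.9996, and no fold change of theirs changed sign. Fits with 1 array left out had no block. Of the 61 cysteine proteases and subtilases with a probe set, besides AT3G49340 and AT2G39850, 36 lay under the filter of the reported fit.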
